A study of Homo sapiens with 9 samples.

Results

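The cytosolic ribosome reads mRNA into protein, and its small (40S) and large (60S) subunits each consist of ribosomal RNA and a set of ribosomal proteins that are needed in about equal numbers. In dividing cancer cells the mRNAs of these proteins are among the most abundant, and their translation depends on mTOR signalling through a pyrimidine run at the 5′ end of the mRNA, the TOP motif. Several members also act outside the ribosome, such as RPL5 and RPL11, which bind MDM2 and so stabilise p53 when ribosome assembly is disturbed. The genes described were all protein-coding genes whose symbol is RPL or RPS followed by a number, together with RPLP0, RPLP1, RPLP2 and RPSA, without the RPS6 kinases. The rule gave 91 of the 60880 gene IDs in the count tables, of which 31 were core 40S members, 46 were core 60S members, 10 were paralogues and 4 only share the name. The last 4 were RPS19BP1, a nucleolar partner of RPS19 that is not a ribosomal protein, and the readthrough genes RPL17-C18orf32, RPL36A-HNRNPH2 and RPS10-NUDT3, which were at 0 counts in every library.

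The libraries were made from poly-A RNA of SNU5, an established human gastric carcinoma cell line, after treatment with ramucirumab, a monoclonal antibody against VEGFR2. The antibody was bound through PEG to gold nanorods (AuNR-PEG-Ab, NR group) or to gold nanospheres (AuSP-PEG-Ab, SP group), or was given alone (Ab group). The dose was taken as 8 μg/mL of antibody in all 3 groups and the time as 24 h. The study's methods give these values for its viability and apoptosis assays, and its sequencing section names neither. Each group had 3 libraries, and no library of cells without antibody or with particles lacking antibody was among the 9. The study calls its replicates biological and its in vitro experiments independently repeated, but neither it nor the labels say which cultures the libraries came from, so p-values measure only the spread between these libraries, which may be technical. Libraries 1, 2 and 3 held 25735410, 13863155 and 15943980 counts (NR), 21682836, 22914759 and 20601906 (SP) and 19566064, 26318227 and 21031024 (Ab).

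Library 1 of Ab stood apart from the rest of its group. The chi-square of the counts per gene was 7.43 between Ab libraries 1 and 2 and 6.95 between libraries 1 and 3, against 2.17 between libraries 2 and 3, and it was 1.84 to 5.16 within NR and SP. All pairs of replicates thus differed by more than sampling noise, and none was counted as a duplicate. Mitochondrial genes took 4.36% to 4.66% of the counts in NR and SP and 3.41% to 3.71% in Ab. Of 12 epithelial markers 10 were above 3 counts in at least 1 library, led by the keratin gene KRT8, and their summed level, as counts scaled to a common library total (CPM), was 2801 to 2994 with the particles and 1266 to 1305 in Ab. KRT19 and CEACAM6 were at or under 3 counts in every library, and CDH1, which encodes E-cadherin, had 5 to 9 counts in Ab and 79 to 159 in NR and SP. Of 10 leukocyte markers 7 were at or under 3 counts in every library, including PTPRC and LYZ, and the summed level of the list was 1.19 to 3.25 CPM. All 8 stroma markers in the tables were above 3 counts in some library, with COL1A1 the most abundant, and their sum was 126.8 to 142.7 CPM with the particles and 22.7 to 48.9 in Ab. The fibroblast gene LUM had 18, 24 and 20 counts in Ab and 514 to 986 in NR and SP. These markers moved with the groups in each comparison with Ab, and their part in the ribosomal protein results was not tested.

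To show the start of these mRNAs, 30 bases around the RefSeq start of 9 members are printed, from 10 bases before to 20 bases after it, with the tract in capitals. They are the 3 members with the largest rises in NR against Ab (RPL7A, RPS27L and RPS28), the 3 genes that differed between NR and SP, and 3 members that were lower (RPL22L1, RPS6 and RPL26L1). The larger falls of RPL36A in NR and of RPS10 in SP, both with few counts, are described with their pseudogenes. The 3 lower members were not the 3 largest falls. RPS19BP1 (log2 -0.77), RPL17 (-0.66), RPL26 (-0.62), RPS12 (-0.41), RPL37 (-0.40) and RPL19 (-0.39), among others, fell by more than RPL26L1 (-0.35) in NR. Of these, RPL26, RPS12 and RPL19 had a tract as defined next, RPL17 had none, and RPS19BP1 and RPL37 had no promoter sequence. A tract was counted when a C followed by at least 4 further C or T, read on the coding strand only, began within 5 bases of the annotated start. The promoter sequences are from RefSeq (GRCh38.p14), and positions are those of the only exact match in GRCh37. The RPL7A window had no such match there.
RPL7A: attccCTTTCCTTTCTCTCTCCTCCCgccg
RPL11 (chr1:24018286-24018315, plus strand): cctggcccataaggCCCTCggccggaagct
RPL39 (chrX:118925574-118925603, minus strand): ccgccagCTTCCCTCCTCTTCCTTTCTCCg
RPL35A (chr3:197677051-197677080, plus strand): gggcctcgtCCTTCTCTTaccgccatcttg
RPS28 (chr19:8386370-8386399, plus strand): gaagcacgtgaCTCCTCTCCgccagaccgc
RPS6 (chr9:19380215-19380244, minus strand): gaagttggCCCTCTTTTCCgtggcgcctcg
RPL22L1 (chr3:170587965-170587994, minus strand): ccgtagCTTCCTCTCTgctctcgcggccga
RPS27L (chr15:63449657-63449686, minus strand): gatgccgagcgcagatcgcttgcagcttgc
RPL26L1 (chr5:172385873-172385902, plus strand): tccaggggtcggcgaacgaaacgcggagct
The tract was 21 bases long in RPL7A and 22 in RPL39, both of which rose against Ab, and it was 11 in RPS6 and 10 in RPL22L1, which fell. All tract lengths were counted only from the limit of 5 bases before the start. In RPL7A the pyrimidine run goes on upstream of this limit. RPL11, which rose, had only 5 bases by this definition, and the paralogues RPS27L and RPL26L1, of which the first rose and the second fell, had none. Of the 72 members with a promoter sequence, 54 (75%) had a tract, and of all 15842 protein-coding promoters of the same length 22.1% had one. For the 51 tested members with a tract the median of the log2 fold changes to Ab was 0.05 (NR) and -0.06 (SP), and for the 15 without one it was 0.01 and -0.09. Across the 66 members with both values, Spearman's rho of tract length with the change in NR was 0.03 and with that in SP -0.01. The medians of both sets thus lay close to 0.

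Counts per kilobase of coding sequence spread widely among core members that form one complex. From here on CPM are scaled by TMM over the 9 libraries unless called unscaled. In Ab the mean level per kilobase of coding sequence was 7902 CPM for RPL41, the shortest member with 75 coding bases, 6576 for RPL37, 2616 for RPL39, 2576 for RPL13 and 2304 for RPS6. It was 1090 for RPS4X, near the middle of the core members. At the other end stood RPS18 with 0.426, RPS10 with 3.46, RPL17 with 3.57, RPL26 with 19.2 and RPL36A with 42.9. RPS18, a 40S protein of the subunit head, had 6, 3 and 3 counts (NR), 2, 5 and 1 (SP) and 4, 6 and 3 (Ab), and it was not tested. EEF1G, a subunit of elongation factor 1 from outside the list, had 0 counts in all libraries. A low value thus says only that few counts were given to a gene in these tables.

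The genes with low counts often shared sequence or position with others. Of all 150-base windows (the read length) of its reference transcript, RPS10 had 50.8% that occur identically elsewhere in the genome, RPL36A 40.8% and RPL17 40.2%. Exon bases that lie within another annotated gene made up 96.9% of the RPL17 transcript, 84.01% of that of RPS10 and 65.3% of that of RPL26. RPS18 had 17% shared windows and no such overlap. Across the 83 members tested against Ab, Spearman's rho of the percent of overlapped bases with the log2 fold change was -0.31 in NR and -0.35 in SP, and that of the percent of shared windows was -0.06 and -0.03. How the counter treated reads with more than 1 position or gene was not given in the sources used here, so values of these members are uncertain. Members with under 10% of shared windows and under 10% of overlapped bases numbered 49, and results are given for these too.

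The ribosomal protein genes together took 5.44%, 5.22% and 5.18% of all counts (NR), 4.99%, 4.93% and 5.10% (SP) and 4.90%, 4.71% and 4.87% (Ab). The NR libraries were all above the SP libraries, and the SP libraries were all above the Ab libraries, although the lowest SP value was close to the highest Ab value. The mean was 5.28% ± 0.141 (SD, n = 3) in NR, 5.01% ± 0.0883 in SP and 4.83% ± 0.103 in Ab. The difference was 0.453 percentage points between NR and Ab, 0.18 between SP and Ab and 0.274 between NR and SP. Each of the 3 pairs had p = 0.1 in an exact two-sided permutation test, also after adjustment over the 3 pairs, which is the smallest value that 3 against 3 libraries can give. A share is relative to all other transcripts, and more ribosomal mRNA per cell and less of other mRNA cannot be told apart.

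The ratio of 60S to 40S counts per coding base was also higher with both particles. The summed ratio was 2.20, 2.17 and 2.20 (NR), 2.15, 2.14 and 2.18 (SP) and 2.099, 2.05 and 2.02 (Ab), and the particle groups did not overlap Ab, while NR and SP overlapped (difference 0.032, exact permutation p = 0.2). The mean difference to Ab was 0.135 in NR and 0.103 in SP, each with p = 0.1 in the exact permutation test (0.15 after adjustment over the 3 pairs). Much of this sum lay in the shortest members, since RPL39 and RPL41 made up 20.1% to 21.6% of the 60S sum in NR and SP and 15.7% to 16.1% in Ab. Without RPL39 and RPL41 all groups overlapped, at ratios of 1.72 to 1.76 (NR), 1.71 to 1.74 (SP) and 1.70 to 1.77 (Ab). As the median over genes in place of the sum, the ratio did not overlap Ab either, at 1.20 to 1.24 (NR), 1.18 to 1.19 (SP) and 1.02 to 1.09 (Ab). The 40S sum also holds RPS27A, described below with its pseudogenes. Its level was 396, 739 and 788 CPM in Ab libraries 1, 2 and 3 and 368 to 420 with the particles. The part of RPS27A in the ratio was not tested.

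**Figure D1:**
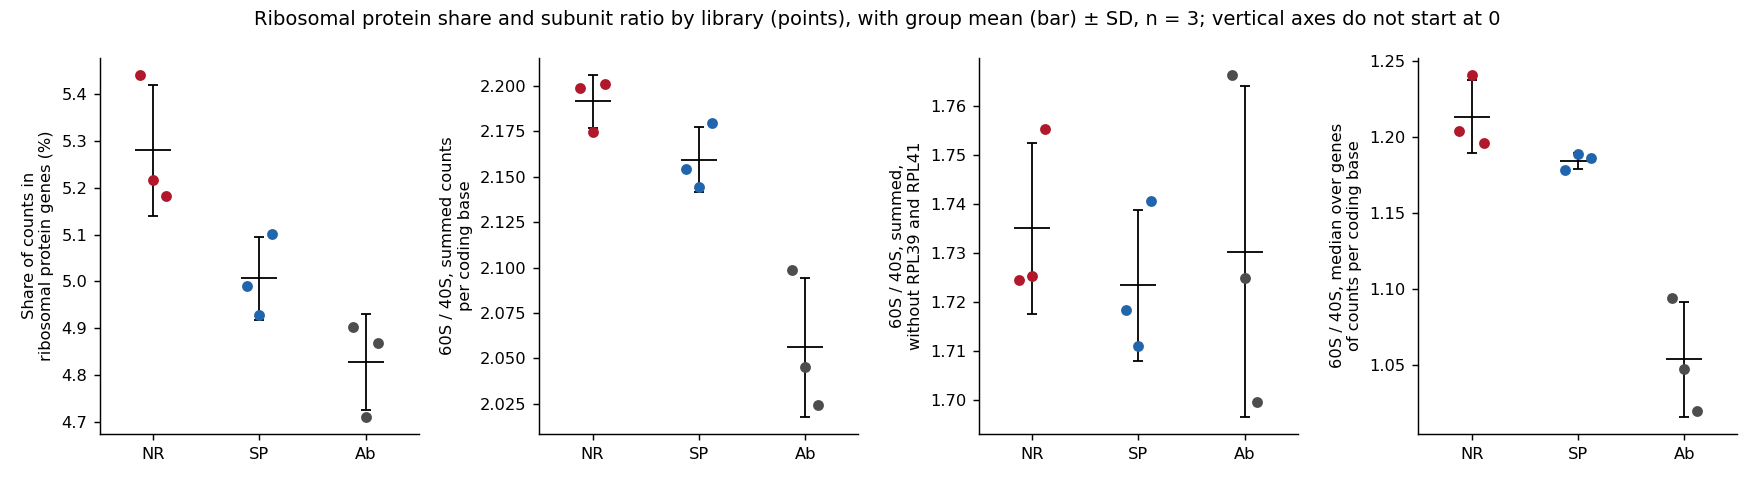
Each point is 1 library, grouped as NR, SP and Ab on the horizontal axis, with the group mean and SD (n = 3). The panels show the percent of counts in ribosomal protein genes and the ratio of 60S to 40S counts per coding base as a sum, as a sum without RPL39 and RPL41, and as a median over genes. The share is highest in NR (5.18% to 5.44%), NR and SP overlap in the summed ratio, and all 3 groups overlap in the ratio without RPL39 and RPL41 (1.70 to 1.77).

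To see which members changed with the particles, each particle group was compared with Ab. Of the 91 members, 83 had enough counts for the test in either comparison. In NR against Ab 37 were higher and 29 lower at an adjusted p of at most 0.05 (edgeR's quasi-likelihood test, Benjamini-Hochberg adjustment over all genes), and the median log2 fold change was 0.04. Among all 15009 genes tested 36.4% were called higher and 36.4% lower, with a median of -0.01, so that the share of members called was near that of all genes. In SP against Ab 28 members were higher and 36 lower, with a median of -0.06, where 36.4% of all 15068 genes were called higher and 36.6% lower. Under upper-quartile scaling, which moved the median of all genes to 0.07 in NR and 0.06 in SP, the members' median was 0.11 in NR and 0.01 in SP, and the sign in SP turned. The members therefore changed in both directions, and their median was smaller than the shift between scalings. Their changes spread less than those of all genes, with an SD of log2 fold changes over the members of 0.45 in NR and 0.46 in SP, against 1.05 and 1.07 over all genes. This was not particular to the members. Over lists described further below, the SD in NR was 0.45 (elongation and TOP genes), 0.44 (60S assembly) and 0.41 (40S assembly). It was 0.56 to 0.84 over the initiation, snoRNP, polymerase I, regulator and mitochondrial ribosome lists. Most of the members moved by far less than 2-fold. With a 2-fold minimum 0 members were higher in either comparison, where 12.4% and 12.6% of all genes were, and 3 were lower in NR and 4 in SP, where 10.3% and 10.6% were. In the elongation, initiation and assembly lists 0 genes were higher at 2-fold in either comparison too. The snoRNP, polymerase I, regulator and mitochondrial ribosome lists had 1 or 2 each. The 2 comparisons share the Ab libraries, and the values of both are therefore given side by side.

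**Figure D2:**
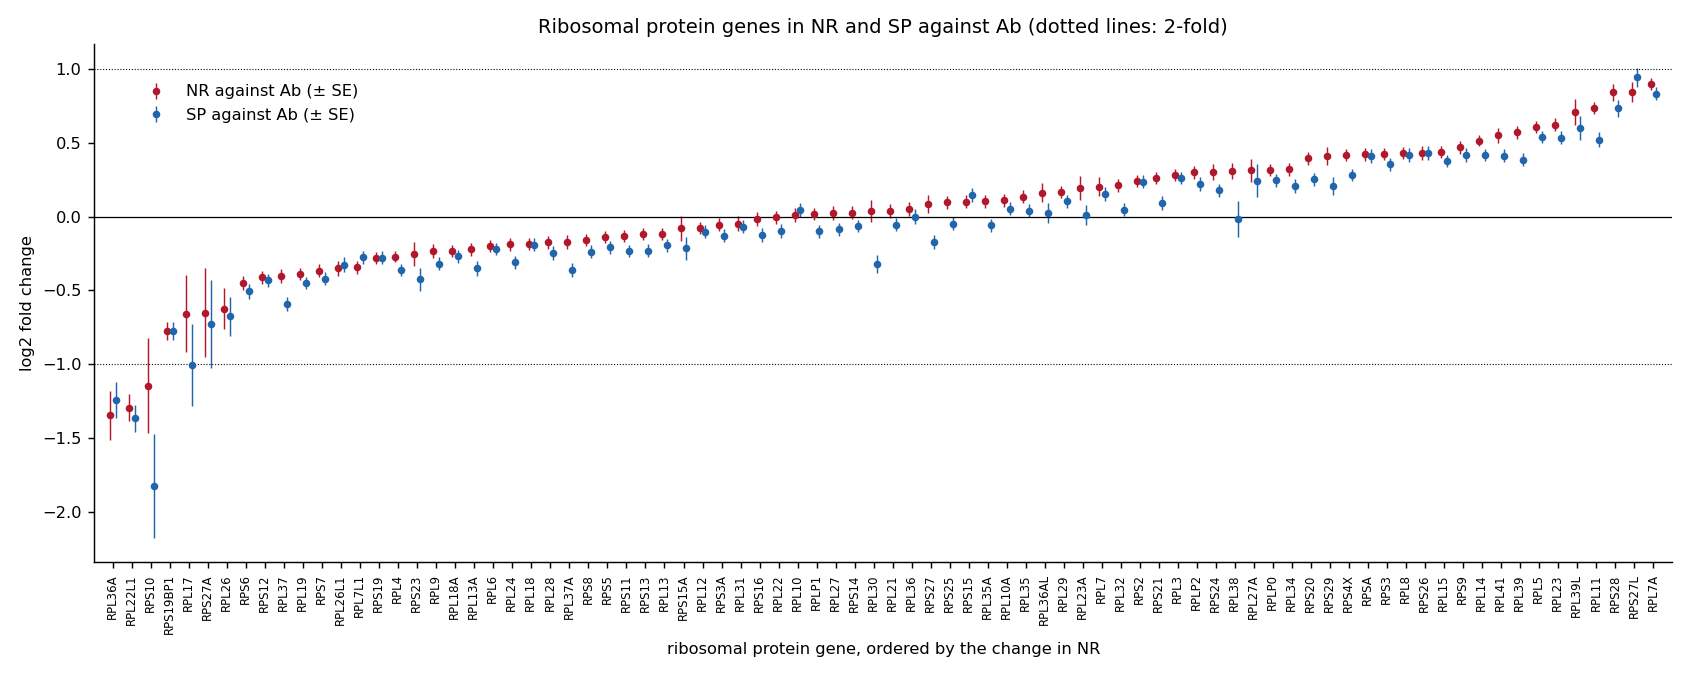
The log2 fold change (vertical axis) of 82 of the 83 tested members against Ab is shown in NR (red) and SP (blue) with its standard error, with the genes on the horizontal axis in the order of their change in NR. Among all 83 tested members, including the 1 not plotted, all rises lie within 2-fold. Beyond 2-fold lie only RPL36A, RPL22L1, RPS10 and, in SP, RPL17, of which RPL22L1 is the only one without shared windows or overlap.

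The largest rises with both particles were in RPL7A, RPS27L and RPS28. RPL7A, a 60S protein, had 1887, 1936 and 1849 CPM (NR), 1795, 1799 and 1817 (SP) and 1059, 963 and 1036 (Ab). This was a log2 rise of 0.90 ± 0.04 (SE) in NR and of 0.83 ± 0.04 in SP, with adjusted p-values of 2.6e-17 and 8e-16. Both particle groups lay far above Ab without overlap. RPS28, a small 40S protein, had 152.1, 147.6 and 143.2 CPM (NR), 133.8, 139.6 and 136.7 (SP) and 88.8, 74.4 and 85.1 (Ab). On the log2 scale it rose by 0.84 in NR and by 0.73 in SP. RPS27L, a p53-induced paralogue of RPS27, had 53.5, 47.6 and 50.2 CPM (NR), 54.9, 51.9 and 55.4 (SP) and 28.7, 27.3 and 28.8 (Ab). It rose by 0.85 ± 0.07 (log2) in NR and by 0.94 ± 0.06 in SP, and the values of both particle groups overlapped. RPS27 itself did not pass in NR (0.08, adjusted p = 0.21) and was lower in SP (-0.17, adjusted p = 0.0035). With upper-quartile scaling RPS27 passed in NR (0.16, adjusted p = 0.019) and not in SP (-0.10, adjusted p = 0.067), it passed in NR without library 3 of NR (0.14), and in SP it did not pass with the trend of fold changes with length and GC content removed (-0.06, adjusted p = 0.28).

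RPL5 and RPL11, the MDM2-binding pair that joins the 60S subunit together with the 5S RNA, both rose. RPL11 had 783, 747 and 764 CPM (NR), 696, 610 and 669 (SP) and 479, 443 and 461 (Ab), with the 3 groups apart from one another. Against Ab the log2 rise was 0.73 ± 0.04 in NR and 0.52 ± 0.05 in SP. RPL5 had 1144, 1096 and 1056 CPM (NR), 1049, 1035 and 1049 (SP) and 708, 721 and 737 (Ab), with log2 fold changes of 0.61 and 0.54. In RPL39, which lines the peptide exit tunnel, the level was 605, 610 and 562 CPM (NR), 507, 527 and 524 (SP) and 403, 384 and 414 (Ab). Against Ab it rose by 0.57 in NR and by 0.38 in SP (log2), and 91.3% of its windows occur elsewhere in the genome. RPL39L, its testis-enriched paralogue, had 28.1, 24.2 and 22.7 CPM (NR), 22.5, 23.9 and 23.4 (SP) and 15.4, 15.4 and 15.5 (Ab), with log2 fold changes of 0.71 and 0.60. RPL3, of the peptidyl transferase region, rose by 0.28 in NR and 0.26 in SP, and RPSA, the laminin-binding 40S protein, by 0.42 and 0.41.

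Of the stalk proteins, which recruit the elongation factors, RPLP0 and RPLP2 rose and RPLP1 did not. RPLP0 had 2322, 2210 and 2262 CPM (NR), 2170, 2109 and 2174 (SP) and 1919, 1741 and 1814 (Ab), with a log2 fold change of 0.32 (adjusted p = 7.2e-08) in NR and 0.25 (adjusted p = 1.2e-05) in SP. RPLP2 had 0.30 and 0.22. RPLP1 had 0.02 in NR, which did not pass (adjusted p = 0.75), and -0.10 in SP, which passed narrowly (adjusted p = 0.048) and was lost under 9 of the alternatives in the closing section. RPL10, RPS14 and RPL22 did not pass in either comparison, with log2 fold changes of 0.01, 0.03 and -0.01 in NR and 0.05, -0.06 and -0.10 in SP. With upper-quartile scaling RPS14 passed in NR (0.099, adjusted p = 0.045). In SP RPL22 passed under 6 of 18 alternatives, such as all 9 libraries in one fit (-0.11, adjusted p = 0.030), and RPL10 under 2, upper-quartile scaling (0.11, adjusted p = 0.027) and without library 1 of Ab (0.083, adjusted p = 0.045).

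Lower with both particles were RPL22L1 and, among abundant core members, RPS6, RPL37, RPS12 and RPL19. RPL22L1, the paralogue of RPL22, had 11.02, 12.5 and 12.3 CPM (NR), 11.8, 11.1 and 10.8 (SP) and 30.5, 26.3 and 31.0 (Ab). It changed by -1.29 ± 0.09 (log2) in NR and by -1.37 ± 0.09 in SP, with adjusted p-values of 3.1e-13 and 1.2e-13, and both lay below Ab without overlap. This was the only member past 2-fold that has no shared window and no overlapping gene. RPS6, the 40S protein phosphorylated by the S6 kinases, had 1306, 1259 and 1200 CPM (NR), 1139, 1204 and 1273 (SP) and 1686, 1610 and 1866 (Ab). The log2 change of RPS6 was -0.45 ± 0.05 in NR and -0.51 ± 0.05 in SP. RPL37 had 1567, 1390 and 1368 CPM (NR), 1193, 1289 and 1303 (SP) and 1908, 1841 and 1992 (Ab), with log2 fold changes of -0.40 and -0.59. The values of RPS12 were -0.41 and -0.43, and those of RPL19 were -0.39 and -0.45. RPS19, often mutated in Diamond-Blackfan anaemia, fell too (-0.28 in both). RPS19BP1, the nucleolar partner of RPS19, fell by more, with -0.77 ± 0.06 in NR and -0.78 ± 0.06 in SP.

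Among the 6 paralogues tested against Ab, 3 were higher and 3 lower in NR, and 2 were higher and 3 lower in SP, against shares over all genes of 36.4% (higher) and 36.4% (lower) in NR and 36.4% and 36.6% in SP. RPS27L and RPL39L were higher in both. RPL36AL was higher in NR (0.16, adjusted p = 0.032), with NR overlapping Ab, and did not pass in SP (0.03). Its call in NR was lost under 8 of 18 alternatives, among them DESeq2 (adjusted p = 0.069), and without library 1 of Ab the log2 fold change was 0.079 (adjusted p = 0.15). In SP it passed with the length and GC trend removed (0.32, adjusted p = 0.00014). RPL22L1, RPL26L1 and RPL7L1 were lower in both, the last pair with -0.35 and -0.35 in NR and -0.33 and -0.28 in SP. RPL3L, the muscle paralogue of RPL3, had 9, 12 and 9 counts (NR), 22, 8 and 3 (SP) and 3, 0 and 2 (Ab), too few for the test, and RPL10L had at most 2 counts in any library.

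**Figure D3:**
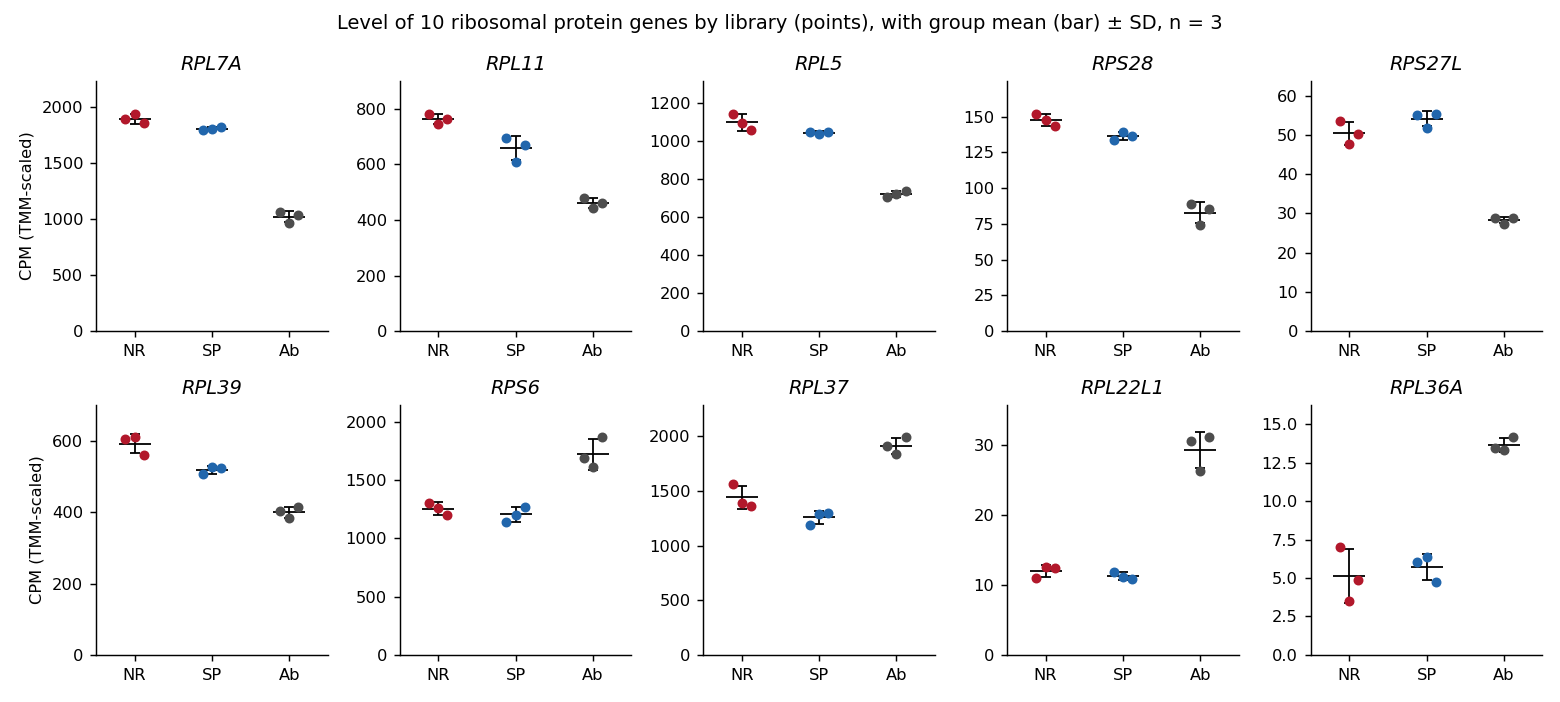
TMM-scaled CPM (vertical axis, from 0) of 10 members is shown for each library in the NR, SP and Ab groups, with the group mean and SD (n = 3). RPL7A, RPL11, RPL5, RPS28, RPS27L and RPL39 lie higher in NR and SP than in Ab, and RPS6, RPL37, RPL22L1 and RPL36A lie lower, without overlap.

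The other members past 2-fold had few counts, and their values changed when counts of pseudogenes were considered. RPL36A, a 60S protein at the exit site, had 6.996, 3.51 and 4.86 CPM (NR), 6.04, 6.38 and 4.73 (SP) and 13.4, 13.3 and 14.1 (Ab), a log2 fold change of -1.35 ± 0.17 in NR and -1.24 ± 0.12 in SP. Its 52 pseudogenes in the tables, matched by name, held many more counts, with 138.7 to 171.7 unscaled CPM (counts scaled to the library total alone) with the particles and 132.4 to 139.4 in Ab. With these counts added to the gene the log2 fold change was 0.18 (adjusted p = 0.00078) in NR and -0.03 (adjusted p = 0.6) in SP. RPS10 had 21, 12 and 11 counts (NR), 12, 9 and 11 (SP) and 21, 65 and 32 (Ab), and its log2 fold change of -1.15 in NR and -1.82 in SP was -0.13 and -0.39 with its pseudogenes added. Without library 2 of Ab, which had the highest count, RPS10 was at -0.75 in NR and no longer passed (adjusted p = 0.073). RPL17 had 13 to 48 counts in any library, and its change of -0.66 in NR and -1.004 in SP was 0.08 and -0.19 with its pseudogenes added. In NR RPL17 also lost its call with DESeq2 (-0.67, adjusted p = 0.14), without library 3 of NR (-0.46, adjusted p = 0.14) and without library 1 of Ab (-0.62, adjusted p = 0.063). RPL26, with -0.62 and -0.68, was -0.25 and -0.44. Adding pseudogenes to every parent gene left 1 member lower at 2-fold in each comparison in place of 3 and 4. In contrast RPL7A was 0.91 and 0.81 with its 79 pseudogenes added, and RPL39 was 0.58 and 0.36. Among the members with little shared sequence, 46 were tested against Ab, of which 22 were higher and 18 lower in NR and 16 and 20 in SP, with medians of 0.04 and -0.06. The shares over all genes were 36.4% (higher) and 36.4% (lower) in NR and 36.4% and 36.6% in SP.

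RPS27A, which encodes a ubiquitin fused to a 40S protein, differed between the Ab libraries in the direction opposite to its name-matched pseudogenes. In unscaled CPM it was at 422, 403 and 405 (NR), 371, 393 and 402 (SP) and 389, 733 and 774 (Ab). Library 1 of Ab thus lay with the particle groups and not with the other Ab libraries. Its log2 fold change was -0.65 ± 0.30 in NR (adjusted p = 0.12) and -0.73 ± 0.30 in SP (adjusted p = 0.092), and without library 1 of Ab it was -0.91 and -0.98 and passed. With all libraries kept RPS27A passed with DESeq2 (adjusted p = 0.042 in NR and 0.0226 in SP) and, in SP, with all 9 libraries in one fit (-0.74, adjusted p = 0.034). The 19 pseudogenes of RPS27A were at 480 to 527 unscaled CPM with the particles and at 528, 176.5 and 134.4 in Ab. The pseudogene RPS27AP16 alone had 7982, 3678 and 2221 counts in Ab. The sum of gene and pseudogenes was 885 to 929 unscaled CPM in all 9 libraries, and its log2 fold change was -0.02 in NR and -0.07 in SP. Of the windows of the RPS27A reference transcript 0% occur identically elsewhere in the genome. Exon bases within another annotated gene made up 31.7% of this transcript. Whether reads were exchanged between RPS27A and its pseudogenes in counting was not tested.

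**Figure D4:**
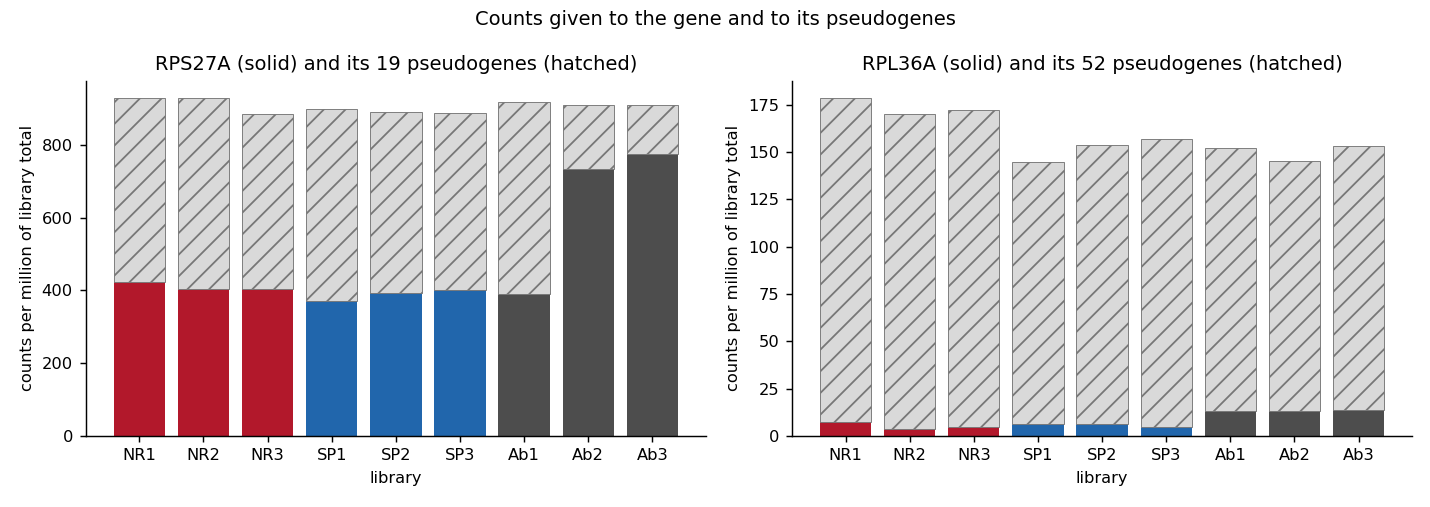
Unscaled CPM (vertical axis, counts scaled to the library total) are stacked for RPS27A and for RPL36A (solid) and for their name-matched pseudogenes (hatched) in each library. In RPS27A the solid part differs between Ab library 1 and Ab libraries 2 and 3 while the sum stays at 885 to 929, and in RPL36A nearly all counts are given to pseudogenes.

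To compare the rod with the sphere, NR was tested directly against SP on their 6 libraries. Of 84 members tested 76 had a positive log2 fold change, and the median was 0.08. Among all 14903 genes 49.9% were positive, with a median of 0.00. At an adjusted p of at most 0.05 there were 3 members higher in NR and 0 lower, against 0.262% and 0.181% of all genes in the same fit. There were 4 higher with upper-quartile scaling, 14 of 71 tested with DESeq2 and 17 of 88 tested without the count filter. No share over all genes is given for these other settings, so whether calls over all genes grew alike cannot be told. At an unadjusted p under 0.05 there were 42 members, against 12.9% of all genes. Without library 1 of NR this count was 24 and the median 0.057, and the counts without each of the other libraries were 29 (library 2 of SP) to 45. The NR libraries all lay above the SP libraries in 40 members, where 8.72% of all genes did so, and all below in 1, where 9.17% did. The median was 0.09 for the 47 tested members with little shared sequence, of which 43 were positive. It was 0.07 after removal of the trend of fold changes with transcript length and GC content, when 69 of the 84 were positive and 0 passed the adjusted p. Spearman's rho of coding length with the change was -0.37 across the 84 genes, the shorter genes being higher in NR, and the part of transcript length in the result beyond the removed trend was not tested.

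RPL11, RPL39 and RPL35A were the 3 that passed. RPL11 was higher in NR by 0.21 ± 0.04 (log2; adjusted p = 0.017), with all NR libraries above all SP libraries at the levels given above. RPL39 was higher by 0.19 ± 0.04 (adjusted p = 0.021). RPL35A, a 60S protein, had 373, 378 and 354 CPM (NR), 317, 325 and 342 (SP) and 348, 326 and 357 (Ab). It was higher in NR than in SP by 0.17 ± 0.04 (adjusted p = 0.048), and the Ab libraries lay between and across both. Against Ab RPL35A was higher in NR (0.10, adjusted p = 0.039), a call lost under 10 of 18 alternatives. In SP it did not pass (-0.06, adjusted p = 0.24). In NR against SP none of the 3 genes passed without library 2 of NR or without library 2 of SP. The count of members that passed was 0 without either of these and 9 without library 3 of SP, with no share over all genes given for these fits. Of the 162 pseudogenes tested in NR against SP, 139 had a positive log2 fold change, with a median of 0.21, and 11 passed as higher in NR, where 49.9% of all genes were positive and 0.262% passed as higher.

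**Figure D5:**
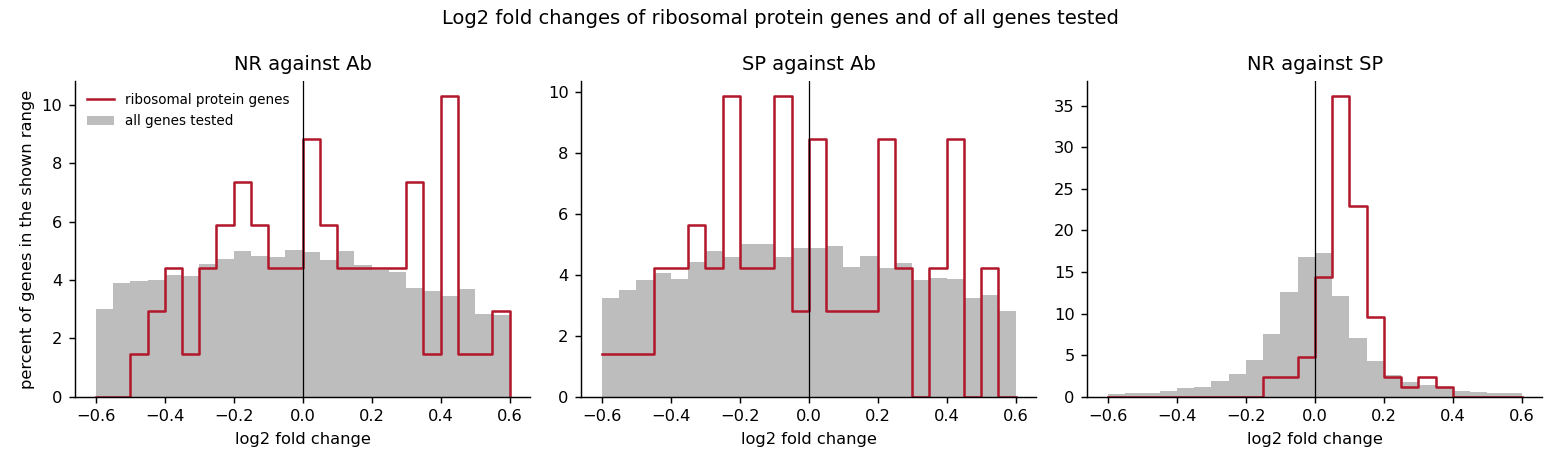
The percent of genes (vertical axis) in bins of log2 fold change between -0.6 and 0.6 is drawn for all genes tested (grey) and for the ribosomal protein genes (red line) in the 3 comparisons. Against Ab the members spread to both sides of 0, and in NR against SP 76 of 84 lie above 0.

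Other genes of translation and ribosome assembly were read from lists in the same fits. RACK1 and FAU, ribosomal proteins whose symbols lie outside the rule, were both higher in NR, RACK1 by 0.60 and FAU by 0.26 (log2). In SP RACK1 was higher by 0.55, and FAU, at 0.10, did not pass (adjusted p = 0.12), although it did with upper-quartile scaling (0.17, adjusted p = 0.0098) and with library totals alone (0.13, adjusted p = 0.047). RACK1, a scaffold on the 40S subunit, had 1632, 1526 and 1551 CPM (NR), 1496, 1468 and 1545 (SP) and 1060, 1011 and 1034 (Ab). Of 18 tested elongation factors and other genes known for a TOP motif, 12 were higher and 5 lower in both comparisons (36.4% of all genes were higher in either, and 36.4% and 36.6% lower), with a median of 0.19 in NR and 0.14 in SP. EIF4B, a helper of the eIF4A helicase, rose by 0.89 in NR and 0.80 in SP, and the eIF3 subunit gene EIF3L by 0.62 and 0.56. TPT1, a TOP mRNA of a growth-related protein, fell, with -0.79 and -0.95. In NR against SP 17 of these 18 had a positive change (49.9% of all genes), with a median of 0.06 and 0 past the adjusted p (5 at an unadjusted p under 0.05).

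Among initiation factors and assembly factors more genes were lower than higher against Ab, where 36.4% of all genes tested were higher and 36.4% lower in NR, and 36.4% and 36.6% in SP. Of 27 initiation factors 7 were higher and 16 lower in NR, with a median of -0.32, and 8 were higher and 16 lower in SP. EIF1, which guards start codon choice, had 268.3, 268.0 and 265.6 CPM in NR and 753.6, 725.5 and 732.9 in Ab, a log2 fold change of -1.46. EIF5, the GTPase activator of eIF2, was at -1.16 and the helicase gene EIF4A2 at -0.96. Of 46 factors of 60S assembly 7 were higher and 31 lower in NR (median -0.37), and of 54 factors of 40S assembly 11 were higher and 33 lower (median -0.25). Here SURF6 was at -0.83 and EBNA1BP2 at -0.71, while LAS1L, of a complex that cleaves precursor rRNA, was at 0.90. RIOK3 was at -1.09, UTP18 at -0.73 and WDR3 at 0.71. In SP 31 of 45 tested 60S factors and 33 of 54 40S factors were lower.

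Against the same 36.4% of all genes higher and 36.4% lower in NR, the remaining lists were mixed. Of the 19 snoRNP and nucleolar genes 6 were higher and 11 lower in NR. NHP2, a protein of H/ACA snoRNPs, rose (1.49), while DKC1, the pseudouridine synthase of the same particles, fell (-0.67), as did NOP56 (-0.86) of the C/D snoRNPs. Of 19 genes of RNA polymerase I and its factors 9 were higher and 7 lower, with POLR2L, a subunit common to the nuclear polymerases, at 1.36, TAF1D at -1.16 and RRN3 at -0.68. Among 22 regulators 8 were higher and 9 lower. EEF2K, the kinase that halts elongation through eEF2, had 63.1, 66.0 and 68.8 CPM (NR), 65.6, 64.1 and 66.9 (SP) and 25.1, 24.3 and 25.2 (Ab), a log2 fold change of 1.41 in both. EIF4EBP1, which binds eIF4E when mTOR is off, was at -1.04 in NR and -1.17 in SP, and TSC1 was at -0.74 and -0.59. Of 79 mitochondrial ribosomal protein genes 41 were higher and 23 lower in NR (median 0.17) and 40 and 23 in SP (median 0.16), with MRPL24 at 0.82, MRPL49 at -0.70 and MRPS10 at -1.18 in NR. In NR against SP 51 of these 79 had a positive change, with a median of 0.02, where 49.9% of all genes did. So did 14 of the 27 initiation factors, 12 of 19 snoRNP and nucleolar genes, 10 of 19 polymerase I genes and 12 of 22 regulators. Fewer assembly factors were positive, with 16 of 45 for 60S assembly (median -0.02) and 15 of 54 for 40S assembly (median -0.03). Of these, 7 and 13 had an unadjusted p under 0.05, against 12.9% of all genes, and 0 passed the adjusted p.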

How the data were processed

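Poly-A RNA of 9 libraries was sequenced as 150-base paired reads. Per the study's methods, the authors used Hisat2 for alignment and then counted reads by gene. The deposited values are whole numbers per Ensembl gene with unequal library totals, and were taken as read counts without normalization. Hg19 is named in their reporting summary, while the submitters' processing notes name mm9, HISAT2 2.1.0 and DESeq2 1.16.1. The annotation release, the strand setting and the treatment of multiply mapped reads were not given in the sources used here. The IDs are human, 59858 of 60880 were found in GENCODE 44 on GRCh37, and those not found took at most 0.115% of a library. Version suffixes were removed from 10363 IDs.

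Each pair of groups was fitted on its 6 libraries with edgeR 4.0.16 (R 4.3.3; TMM, filterByExpr with minimum count 10 and minimum total count 15, robust quasi-likelihood test, Benjamini-Hochberg adjustment over all genes tested). Single values were compared by exact two-sided permutation tests. The steps were tested on simulated counts. A count of 0 allows up to 3 counts, or 0.114 to 0.216 CPM, and covers counting error only.

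The named genes were members past 2-fold, the 5 largest rises and falls against Ab without overlap and with a mean of at least 100 counts, members past the adjusted p in NR against SP, a list of landmarks, and 3 genes per other list. RPS12 and RPL19 among the falls, and the members named for low counts or short coding sequences, were chosen after their values were seen. The members, lists and tests were chosen with earlier results of these data known. Alternatives were other scalings and filters, DESeq2 1.42.0, all 9 libraries in one fit, a replicate block, removal of length and GC trends (loess span 0.3), each library left out and, chosen after seeing the data, pseudogene counts added to the parent, members with little shared sequence, and the ratio without RPL39 and RPL41. RPS4Y1 and RPS4Y2 are counted among the members and not described. A few genes are counted in the totals and not reported here. No per-sample column was left unused.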

Additional observations from a re-analysis of the deposited data

Results flagged for a closer look

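RPL11, RPL39 and RPL35A were singled out because their levels differed between the particle groups when NR was tested directly against SP. The log2 fold changes were 0.21, 0.19 and 0.17, with all 3 NR libraries above all 3 SP libraries in each gene. RPL11 passed in all but 5 of the alternatives, RPL39 in all but 5 and RPL35A in all but 11. With 3 libraries per group no library was tested for being far from the others of its group.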

How the results depend on the processing

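Of the genes named, RPL35A in NR against Ab changed its call under 10 of 18 alternatives, RPLP1 in SP under 9, RPL36AL in NR under 8 and RPL22 in SP under 6, and RPL10 in NR changed its sign under 5. Of 1026 results of named genes and alternatives in NR against Ab, 982 kept their direction and their side of the threshold, as did 994 of 1025 in SP against Ab. For the 3 genes in NR against SP this was 33 of 54, and each of the other 21 no longer passed. The numbers of the replicates did not pair the libraries (same-number correlations of deviations from -0.03 to 0.03). With the replicate block 33 members were higher and 29 lower in NR against Ab, 28 and 36 in SP against Ab, and 2 and 0 in NR against SP.

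Upper-quartile scaling gave members' medians of 0.11 (NR) and 0.0072 (SP, sign turned), 1 member higher at 2-fold in SP (RPS27L), and turned the signs of RPL35A (0.0091) and RPS14 (0.0072) in SP and of RPL22 (0.067) in NR. Library totals alone gave 0.021 for RPL22 in NR. Members higher at 2-fold against Ab numbered 1 without the count filter, with DESeq2 and with all 9 libraries in one fit, in both comparisons (RPL3L, at 0 to 3 counts in Ab, singled out after its values were seen), and 0 to 1 in NR with a library left out. A test against a 2-fold minimum (glmTreat) left 2 lower in each comparison with Ab. With pseudogene counts added, 1 member was lower at 2-fold in each, the signs of RPL36A (0.18), RPL17 (0.081) and RPL22 (0.094) in NR turned, and 5 members were higher in NR against SP. Members with little shared sequence gave 22 higher and 18 lower in NR, 16 and 20 in SP (all genes: 36.4% each way in NR, 36.4% and 36.6% in SP), and 1 lower at 2-fold in each, from fewer genes. In NR against SP 17 of 88 tested members were higher without the filter and 14 of 71 with DESeq2. There were 0 with the length and GC trend removed, 0 with it and the replicate block, and 0 to 9 with a library left out. For these settings, and with pseudogene counts added, no share over all genes is given. The counts therefore cannot be set against calls over all genes.

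Of the genes that did not pass, RPL10 in NR was at -0.011 with a minimum of 10 counts in every library, -0.00089 with the trend removed and -0.03019 to 0.0503 with a library left out. RPLP1 in NR was at -0.0065, -0.0337, -0.0322 (trend removed with the replicate block) and -0.0213 to 0.052 in turn. With a library left out RPL22 was at -0.0308 to 0.0036 and RPS14 at -0.0229 to 0.0681 in NR, and RPL36AL at -0.0607 to 0.0971 in SP. Without RPL39 and RPL41 the 60S to 40S ratio differed by 0.0047 (NR against Ab), -0.0069 (SP against Ab) and 0.0117 (NR against SP). A tract of 7 bases within 2 bases of the start was found in 59.7% of members and 5.26% of all promoters. Where no construction of the alternative shows it, the cause was not tested.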
